A study of Solanum tuberosum with 8 samples.

Results

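Low and high tuber starch content (TSC) were compared within potato plants of low *AGPaseS-a* expression, with 4 of the 8 RNA-seq libraries of the study. The libraries of bulk H2 (high TSC, replicates A and B) and of bulk L2 (low TSC, replicates A and B) were taken by their bulk, and no measured value was used to choose them. Each bulk held tuber RNA pooled from 6 plants of the diploid F1 population 12-3, a cross of DG 00-683 with DG 08-28/13, grown in pots in a field tent, and the fully developed tubers were taken after harvest without further treatment. Bulks H1 (high TSC) and L1 (low TSC) came from plants of the same population with high *AGPaseS-a* expression and also had 2 libraries each. The methods call A and B biological replicates without saying whether both pooled the same 6 plants. Fold changes are given as log2FC of L2 over H2, so that a positive value stands for more transcript in the low TSC bulk.

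A potato tuber stores starch in amyloplasts and protein in vacuoles, where patatins and proteinase inhibitors dominate. Sucrose arrives through the phloem and is cleaved in the cytosol. Glucose 6-phosphate then enters the plastid through a translocator, and ADP-glucose pyrophosphorylase (AGPase) makes the ADP-glucose from which starch synthases and branching enzymes build the granule. Besides storage, the tuber carries a suberized periderm, buds with dividing cells, and defence systems that include oxylipins made by lipoxygenases.

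Total gene counts were between 24667778 and 31554975 in the 4 libraries, and 20389 of 32768 genes had enough counts to be tested. The H2 libraries differed more from each other than the L2 libraries did. Across the tested genes, log2 CPM (counts scaled to the TMM-adjusted size of the library) of H2 replicate A correlated at 0.917 with H2 replicate B, but at 0.955 and 0.958 with the L2 libraries, and the L2 libraries correlated at 0.963 with each other. Family medians are therefore also given against each H2 library alone. Against H2 replicate B alone, the median log2FC ran from -0.21 in the shortest group of genes (5 equal groups by length of the gene on the assembly) to 0.32 in the longest, and against H2 replicate A alone from 0.04 to -0.01. The tuber storage markers were abundant in all 4 libraries, with a summed level of 45053 and 40787 CPM in H2 and 37888 and 31186 CPM in L2 over 41 genes, of which 1 had no count. Both L2 sums were thus below both H2 sums. Of the 35 tested markers 12 were lower and 3 higher without overlap between the bulks, where the shares over all tested genes were 14.8 and 17.3 percent. The median log2FC of the markers was -0.08, with -0.35 against H2 replicate A alone and 0.04 against replicate B alone. The list holds patatins, patatin-like proteins and inhibitors, which are described below as families. Over 32 green tissue markers, none of them at 0, the sum was 65.1 and 283 CPM in H2 replicates A and B and 73.8 and 183 CPM in L2 replicates A and B, higher in replicate B of both bulks. Over 114 markers of dividing tissue, core histones among them, the sum was 1851 and 2740 CPM in H2 and 1915 and 1869 CPM in L2. Without the 41 histones it was 1166 and 1403 CPM in H2 and 1053 and 1101 CPM in L2. Over 39 markers of periderm the sum was 413 and 422 CPM in H2 and 523 and 433 CPM in L2. This sum depends on single genes. Of it, 3-ketoacyl-CoA synthase 4 (LOC102593540) held 82.6 and 60.8 CPM in H2 and 203 and 127 CPM in L2. By its words the list also took in 1-acyl-sn-glycerol-3-phosphate acyltransferases. One of them (LOC102591458) had 92.9 and 123 CPM in H2 and 90.2 and 79.6 CPM in L2.

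The label of low *AGPaseS-a* expression was not checked against a gene. In the study *AGPaseS-a* codes for a large subunit of AGPase, and the annotation names 3 large subunit genes without pairing one of them with it. AGPS1, large subunit 1-like, had 2843 and 1307 CPM in H2, 2106 and 1459 CPM in L2, 2260 and 2217 CPM in H1, and 2247 and 2033 CPM in L1. Large subunit 2 (LOC102600909) had 40.1 and 41.9 CPM in H2, 47.9 and 48.7 CPM in L2, 26.9 and 51.5 CPM in H1, and 42.6 and 43.6 CPM in L1. The bulks of low and of high expression overlapped in both genes, and the third (LOC102582750) was at or under 0.301 CPM in every library. Counts per gene add up all alleles. AGPS1, LOC102600909 and the branching enzyme LOC102596498 were chosen after their values were seen.

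No gene was called between H2 and L2 at an adjusted p (FDR) under 0.05 with an absolute log2FC of at least 1.5 in edgeR (0 percent of 20389 genes, lowest FDR 1.00). At an unadjusted p under 0.05, 212 genes (1.04 percent) were higher and 269 genes (1.32 percent) were lower in L2. DESeq2 on the same 8 libraries called 27 genes at the same thresholds, 10 higher and 17 lower in L2, and DESeq2 with a normal prior on the 4 libraries alone called 11. With the counts scaled by library totals the split was 268 higher and 185 lower, a share of 59.2 percent higher against 44.1 percent in the main fit. The values below are accordingly descriptions of the libraries, and an unadjusted p is given only as a measure of the difference against the spread. As a second description, a gene was counted as not overlapping where both L2 libraries lay on one side of both H2 libraries. Both L2 libraries lay above in 3537 genes (17.3 percent) and below in 3024 genes (14.8 percent). These shares, and those of 1.04 and 1.32 percent at an unadjusted p under 0.05, are the background for the product families. With the library totals, the counts without overlap were 4772 and 2189.

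Genes were ranked by unadjusted p among those without overlap and with at least 1 CPM in a bulk. The first 10 on the higher side included light, terpene and resistance products. Phototropin-2 (LOC102597308), a blue light receptor kinase, had 15.3 and 15.2 CPM in H2 and 56.8 and 40.2 CPM in L2. The groups lay well apart (log2FC 1.67, SE 0.31, unadjusted p = 0.00064 in edgeR), and leaving out single libraries gave 1.40 to 1.90. A disease resistance protein At4g27190-like (LOC102589378) had 5.60 and 3.48 CPM in H2 and 13.1 and 13.4 CPM in L2, a log2FC of 1.55 (SE 0.36). Salicylic acid-binding protein 2-like (LOC102583962), known in tobacco as an esterase that releases salicylic acid from its methyl ester, had 12.8 and 11.6 CPM in H2 and 34.3 and 28.1 CPM in L2, with a log2FC of 1.35 (SE 0.32).

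Some of these genes were nearly without reads in H2. Premnaspirodiene oxygenase-like (LOC102585554), a cytochrome P450 of sesquiterpene synthesis, had 0 counts in both H2 libraries and 22 and 200 counts in L2, which is at least 58-fold higher when H2 is set to 3 counts over its 2 libraries. The L2 libraries differed widely in this gene. Pheophytinase (LOC102595732), which removes the phytol chain in chlorophyll breakdown, had 0 and 1 count in H2 and 18 and 137 counts in L2, a ratio of 122 with an exact 95% interval of 21.5 to 4831 that covers counting error only. The uncharacterized gene LOC107060207 had 1 and 0 counts in H2 and 132 and 73 counts in L2 (ratio 161, interval 28.5 to 6380). LOC107060617, also uncharacterized, had 1.06 and 0.773 CPM in H2 and 13 and 16.2 CPM in L2 (log2FC 3.98, SE 0.66). The lowest p on this side belonged to LOC102599863, a gene without a product name, with 0.354 and 0.0430 CPM in H2 and 6.22 and 11.3 CPM in L2. LOC102579901, also without a product name, and the uncharacterized LOC102598865 completed the 10 genes, with a log2FC of 4.32 and 2.54.

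On the lower side, the genes of lowest p, ranked in the same way, included an oxylipin enzyme, a wax enzyme and a wall sugar enzyme. 9-divinyl ether synthase (LOC102588225), which turns the product of 9-lipoxygenases into divinyl ether oxylipins, had 274 and 198 CPM in H2 and 85 and 40.9 CPM in L2 (log2FC -1.91, SE 0.37, unadjusted p = 0.00079 in edgeR). Protein ECERIFERUM 3-like (LOC102594285), whose Arabidopsis namesake takes part in wax alkane synthesis, had 32.4 and 14.4 CPM in H2 and 4.90 and 4.27 CPM in L2. UDP-glucuronic acid decarboxylase 2 (LOC102592280), which makes UDP-xylose for wall polysaccharides, had 263 and 277 CPM in H2 and 66.6 and 120 CPM in L2. The log2FC of the last 2 was -2.35 (SE 0.46) and -1.53 (SE 0.33).

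Coiled-coil domain-containing protein 15-like (LOC102593741) had 75.5 and 45.2 CPM in H2 and 11.1 and 14.2 CPM in L2. Proteasome subunit beta type-1-like (LOC102595078), a part of the core particle that degrades ubiquitinated proteins, had 17.8 and 32.1 CPM in H2 and 6.06 and 7.03 CPM in L2. Their log2FC was -2.25 (SE 0.43) and -1.93 (SE 0.37). Glutathione transferase GST 23-like (LOC102592934) had 23.8 and 21.1 CPM in H2 and 8.54 and 9.88 CPM in L2, and aspartic protease inhibitor 3 and cytochrome P450 87A3-like are described with their families and with the H1/L1 comparison. The remaining 2 of the 10 genes, LOC102583174 and LOC102594452, were uncharacterized, with a log2FC of -4.38 and -1.35.

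Of the 212 genes that were higher, 51 were uncharacterized products, 72 fell into a family named by its product, and 97 had an absolute log2FC of at least 1.5. For the 269 lower genes these numbers were 63, 115 and 110, and for all 20389 tested genes 4867, 6482 and 1146. The share in a family was thus 34.0 percent of the higher and 42.8 percent of the lower genes, against 31.8 percent of all tested genes.

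The 82 product families group genes by words of their product name, and 78 of them had at least 10 tested members. The median over all tested genes was 0.01 against both H2 libraries and 0.01 and 0.08 against replicates A and B alone. In 32 families the median was on the same side of 0 against each H2 library, 14 below and 18 above, and in the other 46 its sign depended on the H2 library. The median was at or below -0.1 against each H2 library in 5 families and at or above 0.1 in 5. The former were proteinase inhibitors, glutathione S-transferases, lipoxygenase and jasmonate genes, cytosolic ribosomal proteins and the respiratory chain, and the latter were expansins, genes of cutin, suberin and wax, genes of tuberization, clock and flowering, tubulins and pentatricopeptide repeat proteins. Where the H2 libraries differed from gene to gene, the median against both could lie outside the other medians, because the fit averages the H2 libraries within each gene, as for the 15 tested expansins (-0.23 against both, 0.39 and 0.33 against each alone).

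**Figure D1:**
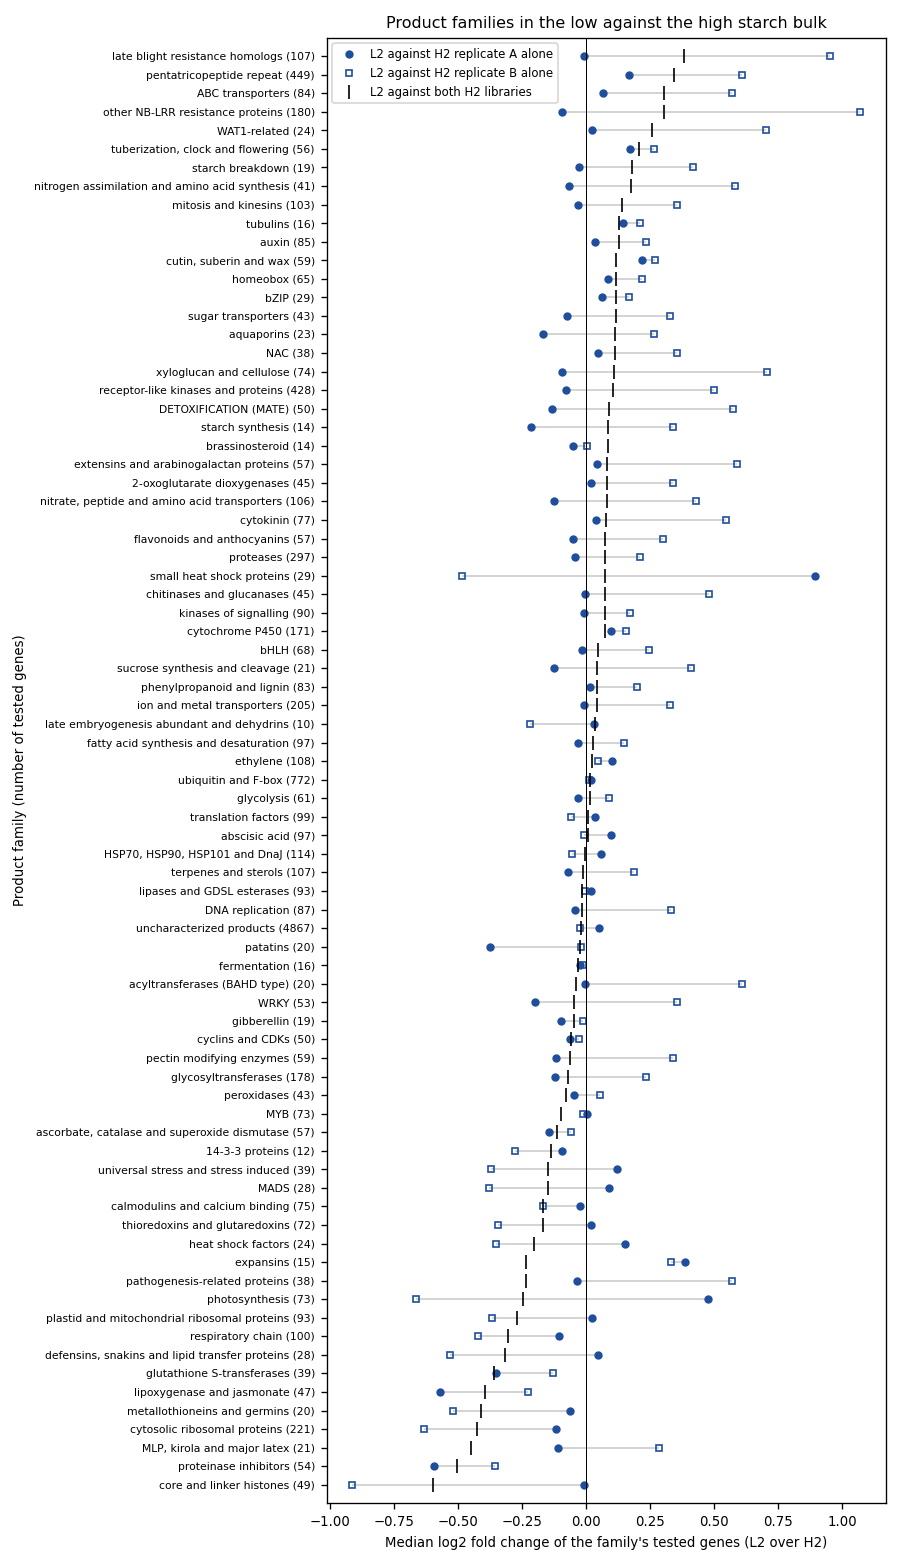
Median log2FC (L2 over H2) of each product family with at least 10 tested genes, against H2 replicate A alone (filled circle), H2 replicate B alone (open square) and both (vertical mark), with the number of tested genes in brackets. Proteinase inhibitors lay below 0 against either library (-0.59 and -0.35), whereas photosynthesis lay at 0.48 against replicate A and at -0.66 against replicate B.

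Starch genes differed little. Of 14 tested genes of starch synthesis (17 annotated), none reached an unadjusted p under 0.05 in either direction. Without overlap, 3 were higher in L2 (21.4 percent, against 17.3 percent over all genes) and none was lower (14.8 percent over all genes). Granule-bound starch synthase (GBSS), which makes amylose, had 3939 and 2684 CPM in H2 and 4372 and 3377 CPM in L2, with a log2FC of 0.23 (SE 0.33). AGPS1, given above, had a log2FC of -0.22. A 1,4-alpha-glucan-branching enzyme-like gene (LOC102596498) had 1658 and 508 CPM in H2 and 1385 and 925 CPM in L2. In each of these the H2 libraries enclosed or overlapped the L2 libraries, and without H2 replicate A the log2FC of AGPS1 and of the branching enzyme was 0.45 and 1.18. The family median was 0.08, with -0.21 against H2 replicate A and 0.34 against replicate B. The 3 genes without overlap were soluble starch synthase 1 (LOC102600045), a large subunit of AGPase (LOC102600909) and branching enzyme 2-2 (LOC102590711), with a log2FC of 0.20, 0.24 and 0.30, named after their values were seen.

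Starch breakdown also differed little over 19 tested genes, with no gene at an unadjusted p under 0.05. In each direction 1 gene was without overlap (5.26 percent), under the 17.3 percent higher and 14.8 percent lower over all genes. The L-1 isozyme of alpha-1,4 glucan phosphorylase (LOC102596766), a plastid enzyme that acts on the ends of glucan chains, had 9187 and 7737 CPM in H2 and 10947 and 6993 CPM in L2 (log2FC 0.08, SE 0.40). Its log2FC without single libraries ran from -0.28 to 0.37. Among 21 tested genes of sucrose synthesis and cleavage, 3 were lower without overlap (14.3 percent), close to the 14.8 percent over all genes. None was higher without overlap, against 17.3 percent over all genes. Sucrose synthase (SS16), which cleaves sucrose on its way to starch, had 3416 and 1883 CPM in H2 and 3067 and 1937 CPM in L2. The groups overlapped in this gene (log2FC -0.08, SE 0.38).

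Sugar transporters held 1 gene in each tail that was far from the other bulk. Glucose-6-phosphate/phosphate translocator 2 (LOC102604259), of the carriers that bring glucose 6-phosphate into plastids, had 4.18 and 5.71 CPM in H2 and 0.337 and 0.485 CPM in L2. Its log2FC was -3.57 (SE 0.81, unadjusted p = 0.0021 in edgeR, and an FDR of 0.0101 in DESeq2), with -3.86 to -3.33 when single libraries were left out. Bidirectional sugar transporter SWEET12-like (LOC102591902), named after a sucrose exporter of the Arabidopsis phloem, had 0.319 and 0.516 CPM in H2 and 7.44 and 3.39 CPM in L2 (log2FC 3.70, SE 1.01). Of the 43 tested members, 18.6 percent were higher and 14 percent lower without overlap, close to the shares over all genes.

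Proteinase inhibitors were lower in L2 as a family. Of 54 tested members, 38.9 percent were lower without overlap and 1.85 percent higher, 11 were lower at an unadjusted p under 0.05 and none was higher, and the median was -0.50, with -0.59 and -0.35 against H2 replicates A and B alone. Aspartic protease inhibitor 3 (LOC102604582, SolTub_3.0 scaffold NW_006239330.1), a Kunitz-type inhibitor of tubers, had 1619 and 1505 CPM in H2 and 685 and 649 CPM in L2. The replicates were close in both bulks, and the log2FC of -1.23 (SE 0.27) stayed between -1.28 and -1.17 without single libraries. Cysteine protease inhibitor 1-like (LOC102596248) had 362 and 491 CPM in H2 and 151 and 130 CPM in L2. Proteinase inhibitor 1-like (LOC107061909), of the wound-inducible serine proteinase inhibitors, had 39.1 and 61.4 CPM in H2 and 7.72 and 8.94 CPM in L2. Both were chosen after their values were seen, and their log2FC was -1.60 (SE 0.47) and -2.59 (SE 0.79).

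Type-2 inhibitors, which inhibit trypsin and chymotrypsin, varied more between replicates. Proteinase inhibitor type-2-like (LOC102590434) had 45.7 and 113 CPM in H2 and 16.8 and 4.70 CPM in L2. Proteinase inhibitor type-2 (LOC102581269, chosen after its values were seen) had 82.0 and 146 CPM in H2 and 40.8 and 10.9 CPM in L2. In both, H2 replicate B was highest and L2 replicate B lowest. The 6 tested type-2 genes had a median of -1.52 (-0.40 and -2.13 against H2 replicates A and B alone) and a range from -2.88 to 1.89. The type-2 gene of highest CPM, P303.51 (LOC102605262), had 2352 and 2974 CPM in H2 and 2110 and 1965 CPM in L2. Its log2FC was -0.39 (SE 0.61), and it was chosen after its values were seen. The 25 tested Kunitz-type genes had a median of -0.37 (-0.72 and -0.27), with 48 percent lower and none higher without overlap. The proteinase inhibitor with the highest CPM overlapped between the bulks. The Kunitz-type protease inhibitor precursor (LOC102577642) had 9404 and 11265 CPM in H2 and 9731 and 9283 CPM in L2 (log2FC -0.12, SE 0.42). Cysteine protease inhibitor 9-like (LOC102593917) was high in a single library, with 19.4 and 1.16 CPM in H2 and 0.612 and 0.545 CPM in L2, and its log2FC of -4.14 was -1.0 without H2 replicate A.

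The patatin family, grouped by product name, was divided. It holds patatins, the lipid acyl hydrolases that serve as storage glycoproteins, and also patatin-like proteins. Its shares and median therefore do not describe the storage proteins alone. Of 20 tested members, 35 percent were lower and 10 percent higher without overlap. The 2 members that were lower at an unadjusted p under 0.05 were both patatin-like proteins. The family median was -0.02 (-0.37 and -0.02 against each H2 library, and 0.09 with library totals). Patatin-2-Kuras 4-like (LOC102605593) had 11079 and 10018 CPM in H2 and 7515 and 5137 CPM in L2 (log2FC -0.74, SE 0.34). Patatin-like protein 3 (LOC102606222) had 79.1 and 47.5 CPM in H2 and 23.7 and 27.1 CPM in L2 (log2FC -1.32, SE 0.30), and patatin-like protein 2 (LOC102595021) on the same scaffold (NW_006239109.1) had 6.27 and 4.98 CPM in H2 and 1.87 and 2.39 CPM in L2. Patatin and Kunitz genes have close copies among which reads can be divided, so that values of single members are uncertain.

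Lipoxygenase and jasmonate genes were also lower in L2. Of 47 tested members, 34.0 percent were lower and 4.26 percent higher without overlap, and 6 were lower and none higher at an unadjusted p under 0.05. The median was -0.39 (-0.57 and -0.23 against each H2 library). A probable linoleate 9S-lipoxygenase 8-like gene (LOC102598541, SolTub_3.0 scaffold NW_006239132.1, positions 78399 to 90367) had 4776 and 4801 CPM in H2 and 1807 and 730 CPM in L2. Linoleate 9S-lipoxygenase 2-like (LOC102602192, the same scaffold, positions 35328 to 40217) had 5739 and 3476 CPM in H2 and 2703 and 2048 CPM in L2. These enzymes add oxygen to linoleic acid at carbon 9, the step before 9-divinyl ether synthase, and both genes were named after their values were seen. Their log2FC was -1.92 (SE 0.46) and -0.96 (SE 0.39). Of 8 tested linoleate 9S-lipoxygenase genes, 3 were lower and none higher without overlap. The third (LOC102590972) was low in level, with 1.81 and 1.25 CPM in H2 and 0.643 and 0.576 CPM in L2. It and the genes that follow were also chosen after their values were seen, and those that follow overlapped between the bulks. 5-lipoxygenase (LOC102577615) had 4824 and 1841 CPM in H2 and 2536 and 2186 CPM in L2. Linoleate 9S-lipoxygenase 6-like (LOC102602528) had 1577 and 1166 CPM in H2 and 1098 and 1169 CPM in L2. The 9-divinyl ether synthase-like genes LOC102584249 and LOC102588560 had a log2FC of 0.30 and 2.41.

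In the jasmonate branch, protein TIFY 10A-like (LOC102584798), of the repressors of jasmonate responses, had 4.36 and 2.36 CPM in H2 and 0.306 and 0.303 CPM in L2. Methyl jasmonate esterase (MJE), which releases jasmonic acid from its methyl ester, had 2.55 and 3.52 CPM in H2 and 0.582 and 0.545 CPM in L2. Both were picked among members without overlap, and the log2FC was -3.45 (SE 0.81) and -2.42 (SE 0.60). Further genes of this branch were chosen after their values were seen. TIFY 10A (LOC102580049), allene oxide cyclase (LOC102577822) and coronatine-insensitive protein 1 (LOC102584101) overlapped, with a log2FC of 0.09, -0.40 and -0.06. Allene oxide synthase LOC102589003 was lower without overlap (-1.73), and LOC102577479 overlapped (-0.22). Of 13 tested TIFY genes, 46.2 percent were lower and 7.69 percent higher without overlap.

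**Figure D2:**
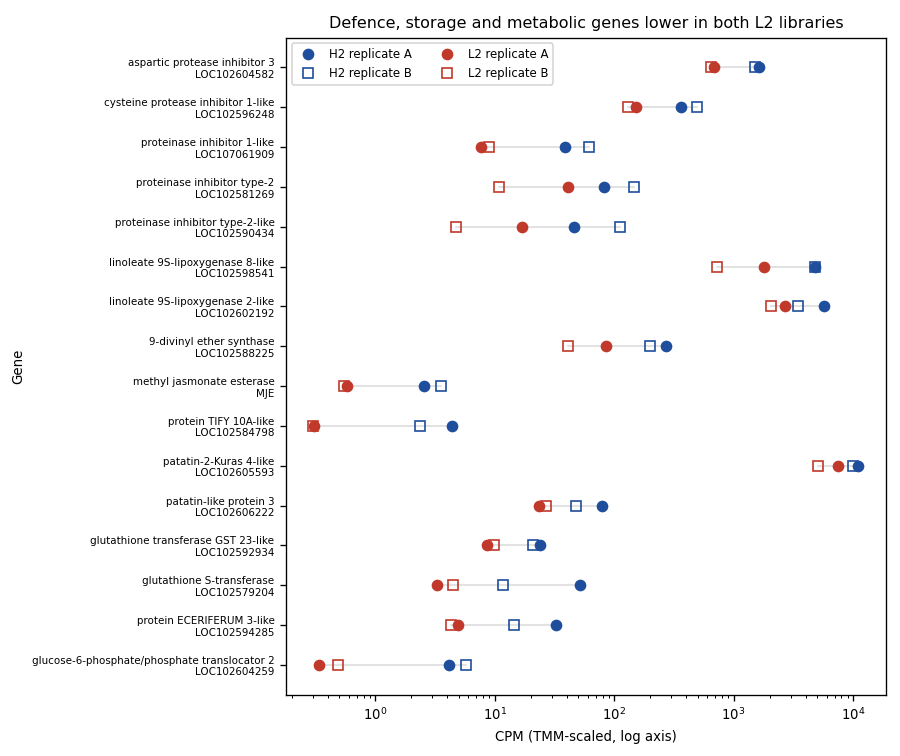
CPM (TMM-scaled, log axis) of 16 genes in the H2 libraries (blue) and the L2 libraries (red), with replicate A filled and replicate B open. Only genes with both L2 libraries below both H2 libraries were plotted, such as the 9S-lipoxygenase 8-like gene with 4776 and 4801 CPM against 1807 and 730 CPM.

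Glutathione S-transferases, which couple glutathione to reactive compounds, had 35.9 percent of 39 tested members lower and 2.56 percent higher without overlap, and a median of -0.36 (-0.35 and -0.13 against each H2 library). A probable glutathione S-transferase (LOC102579204) had 51.3 and 11.8 CPM in H2 and 3.31 and 4.49 CPM in L2. H2 replicate A was high in this gene, and its log2FC of -3.02 (SE 0.87) was -1.60 without that library.

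Ribosomal, respiratory and histone genes were shifted to lower values, and most of this shift was against H2 replicate B. Of 221 tested genes of cytosolic ribosomal proteins, 53.8 percent were lower and 1.36 percent higher without overlap, with a median of -0.43 that was -0.12 against H2 replicate A and -0.64 against replicate B. At an unadjusted p under 0.05, 11 were lower and 1 was higher. 40S ribosomal protein S28 (LOC102583160) had 486 and 1018 CPM in H2 and 199 and 299 CPM in L2. The respiratory chain (100 tested genes) had 39 percent lower and 1 percent higher, with a median of -0.30 (-0.10 and -0.42). Cytochrome b-c1 complex subunit 8 (LOC102583699) had 32.5 and 33.9 CPM in H2 and 23.3 and 21.9 CPM in L2, the one member at an unadjusted p under 0.05.

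Core and linker histones, which package DNA and whose transcripts are high in replicating cells, had the lowest median of the 78 families, -0.60 over 49 tested genes. The median was -0.01 against H2 replicate A and -0.91 against replicate B alone. Histone H4 (LOC102604694) nevertheless had equal levels in the H2 libraries, 7.73 and 7.78 CPM, against 1.22 and 2.33 CPM in L2. Histone H2A.1 (LOC102598032) had 19.0 and 14.4 CPM in H2 and 5.05 and 7.67 CPM in L2. Both were chosen after their values were seen, with a log2FC of -2.12 (SE 0.50) and -1.39 (SE 0.34).

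In photosynthesis genes the direction depended on the H2 library. Over 73 tested genes the median was -0.25, but 0.48 against H2 replicate A and -0.66 against replicate B, and 6.85 percent were lower and 1.37 percent higher without overlap, both under the shares over all genes. Ferredoxin-1 (LOC102600409), an electron carrier of plastids, had 63.2 and 88.9 CPM in H2 and 43.2 and 28.4 CPM in L2 and did not overlap. Small heat shock proteins, which hold unfolded proteins, changed sign in the same way, with 0.89 against H2 replicate A and -0.48 against replicate B over 29 genes.

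Pentatricopeptide repeat proteins, which bind RNA in plastids and mitochondria, had the highest share of members above both H2 libraries among the 78 families. Of 449 tested members, 37.4 percent were higher and 5.12 percent lower without overlap, and the median was 0.34, with 0.17 and 0.61 against H2 replicates A and B. At an unadjusted p under 0.05, 4 were higher and 2 lower, where the shares over all tested genes were 1.04 and 1.32 percent. Single members were thus in these tails no more often than other genes. One such protein (LOC102589379) had 1.31 and 1.25 CPM in H2 and 3.58 and 3.24 CPM in L2. On the lower side, another repeat protein (LOC102590270) had 97.4 and 139 CPM in H2 and 70.2 and 70.6 CPM in L2.

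Genes of tuberization, the circadian clock and flowering were higher in 33.9 percent and lower in 3.57 percent of 56 tested members without overlap, and 6 were higher and none lower at an unadjusted p under 0.05. The median was 0.21, with 0.17 and 0.26 against each H2 library, so that the H2 libraries gave like values here. Phytochrome E (LOC102588382), a red light receptor, had 27.0 and 19.4 CPM in H2 and 41.7 and 49.5 CPM in L2. Zinc finger protein CONSTANS-LIKE 4-like (LOC102578495), of a group of day length regulators, had 29.1 and 23.4 CPM in H2 and 42.4 and 46.3 CPM in L2. Their log2FC was 0.98 (SE 0.42) and 0.75 (SE 0.25).

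Cyclic dof factor 1-like (LOC102597615), of a clock-controlled group that includes a regulator of tuber onset in potato, had 19.1 and 21.7 CPM in H2 and 27.9 and 37.4 CPM in L2. Flowering locus K homology domain-like (LOC102589032), an RNA-binding protein named after a regulator of flowering in Arabidopsis, had 99.0 and 121 CPM in H2 and 167 and 197 CPM in L2. Both were without overlap and had a log2FC of 0.68 (SE 0.26) and 0.73 (SE 0.28), and these 2 genes and the 2 of the preceding paragraph were chosen after their values were seen. The other 2 members at an unadjusted p under 0.05 were low in level. CONSTANS-LIKE 10 (LOC102580320) had 0.532 and 0.687 CPM in H2 and 2.42 and 1.67 CPM in L2. EARLY FLOWERING 3-like (LOC102586641), of a complex that acts in the evening phase of the clock, had 0 and 1 count in H2 and 19 and 28 counts in L2.

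**Figure D3:**
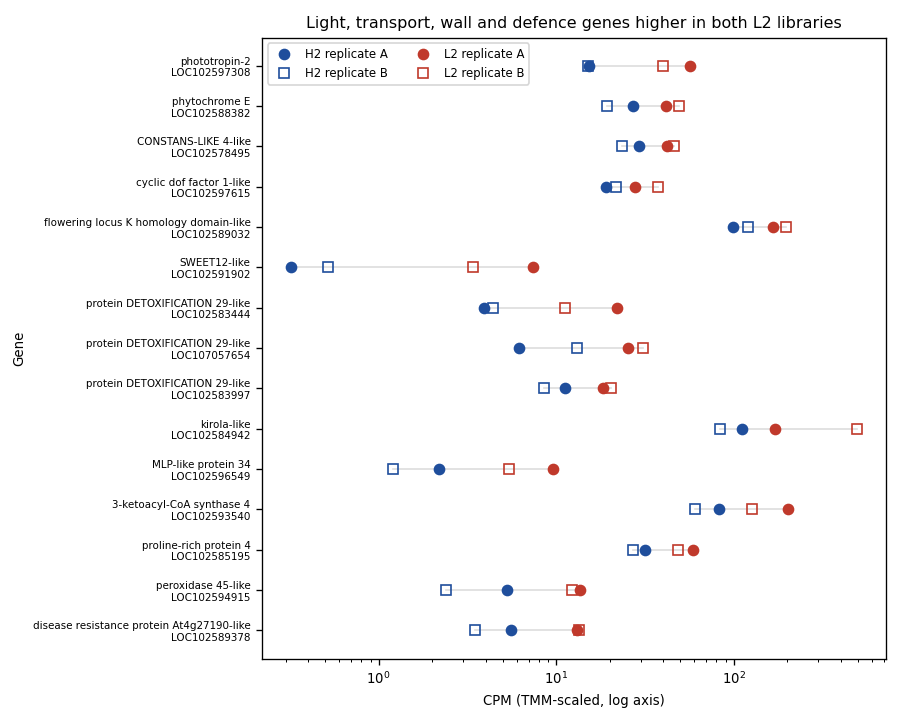
CPM (TMM-scaled, log axis) of 15 genes in the H2 libraries (blue) and the L2 libraries (red), with replicate A filled and replicate B open. Only genes with both L2 libraries above both H2 libraries were plotted, such as phototropin-2 with 15.3 and 15.2 CPM against 56.8 and 40.2 CPM.

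Resistance genes were higher mainly against H2 replicate B. NB-LRR resistance proteins, intracellular receptors of pathogen effectors, had 24.4 percent of 180 tested members higher and 2.78 percent lower without overlap, and 6 higher and none lower at an unadjusted p under 0.05. Their median of 0.30 was -0.09 against H2 replicate A and 1.07 against replicate B. Late blight resistance homologs (107 tested) had a median of 0.38, with -0.01 and 0.95. Of them 20.6 percent were higher and 10.3 percent lower without overlap, near the 17.3 and 14.8 percent over all genes. At an unadjusted p under 0.05, 1 was higher and none lower. Disease resistance protein RPP13-like (LOC102590927, chosen after its values were seen) had 0.354 and 1.16 CPM in H2 and 3.55 and 3.24 CPM in L2. A second At4g27190-like gene (LOC102596811) on the scaffold of LOC102589378 (NW_006239195.1) had 1.42 and 0.0430 CPM in H2 and 3.95 and 6.45 CPM in L2. Reads of such clustered copies can be divided among them.

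Genes of cutin, suberin and wax had 25.4 percent of 59 tested members higher and 8.47 percent lower without overlap, and a median of 0.12 (0.22 and 0.27 against each H2 library). Of these, 3 were higher and 1 lower at an unadjusted p under 0.05. 3-ketoacyl-CoA synthase 4 (LOC102593540), which elongates fatty acids, had 82.6 and 60.8 CPM in H2 and 203 and 127 CPM in L2. Cytochrome P450 94A1-like (LOC102582727), of a group that hydroxylates the end of fatty acid chains, had 3.26 and 2.36 CPM in H2 and 6.92 and 4.94 CPM in L2. The ECERIFERUM 3-like gene given above was the member in the lower tail, so that the family held genes well apart in both directions.

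Wall proteins and defence proteins of the latex group also held genes in both tails. Proline-rich protein 4 (LOC102585195) had 31.7 and 26.9 CPM in H2 and 58.9 and 48.7 CPM in L2 (log2FC 0.87, SE 0.24), whereas 14 kDa proline-rich protein DC2.15-like (LOC102597246) had 44.2 and 33.5 CPM in H2 and 14.1 and 15.7 CPM in L2 (log2FC -1.38, SE 0.41). Peroxidase 45-like (LOC102594915) had 5.28 and 2.41 CPM in H2 and 13.6 and 12.3 CPM in L2. Kirola-like (LOC102584942), of the major latex proteins related to PR-10, had 112 and 83.8 CPM in H2 and 171 and 497 CPM in L2, and its log2FC of 1.77 was 0.81 without L2 replicate B. MLP-like protein 28 (LOC102590200) of the same family had 322 and 1076 CPM in H2 and 281 and 166 CPM in L2, with a log2FC of -1.65 that was -0.53 without H2 replicate B.

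Transporters of the DETOXIFICATION (MATE) family, which export organic compounds, had 3 of 50 tested members higher and none lower at an unadjusted p under 0.05, and all 3 were DETOXIFICATION 29-like genes on 1 scaffold (SolTub_3.0 NW_006239172.1). LOC102583444 had 3.90 and 4.38 CPM in H2 and 22.1 and 11.2 CPM in L2. LOC107057654 had 6.2 and 13.1 CPM in H2 and 25.4 and 30.8 CPM in L2. LOC102583997, chosen after its values were seen, had 11.2 and 8.51 CPM in H2 and 18.4 and 20.4 CPM in L2. The log2FC was 2.00 (SE 0.60), 1.54 (SE 0.43) and 0.98 (SE 0.28). None overlapped between the bulks, which the choice of the first 2 required. As neighbouring copies they may share reads and are not independent genes. Over the whole family, these 3 included, the shares without overlap were 18 percent higher and 10 percent lower, and over the other 47 members they were 12.8 and 10.6 percent.

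ABC transporters (84 tested) had 21.4 percent higher and 1.19 percent lower, with a median of 0.31 (0.07 and 0.57 against each H2 library). In the nitrate, peptide and amino acid transporters, NRT1/PTR FAMILY 3.1-like (LOC102602682) had 286 and 177 CPM in H2 and 62.0 and 96.7 CPM in L2. NRT1/PTR FAMILY 2.7-like (LOC107059364) had 1 and 0 counts in H2 and 39 and 52 counts in L2, a ratio of 71.4 with an interval of 12.5 to 2849. The family thus had members far apart in both directions, 4 higher and 3 lower at an unadjusted p under 0.05 among 106.

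**Figure D4:**
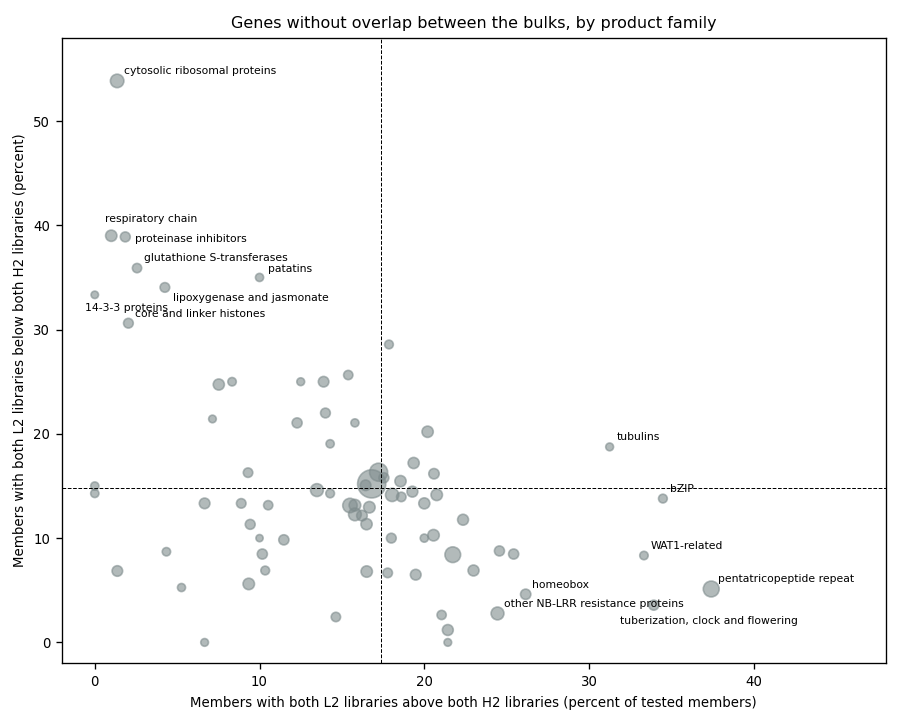
Share of the tested genes of each product family with both L2 libraries above (horizontal axis) or below (vertical axis) both H2 libraries, in percent; dashed lines show the shares over all tested genes, 17.3 and 14.8 percent, and a larger point stands for more tested genes. Cytosolic ribosomal proteins lay at 53.8 percent lower and pentatricopeptide repeat proteins at 37.4 percent higher.

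The same contrast in plants of high *AGPaseS-a* expression, L1 over H1, compares other libraries but came from the same fit of all 8. Its p-values therefore share the filter, the scaling and the estimate of the spread with H2/L2 and are not independent of them. In H1/L1, 488 genes (2.39 percent) were higher and 680 (3.34 percent) lower at an unadjusted p under 0.05. Of the 212 genes higher in L2, 167 were also higher in L1 by the sign of the log2FC, 43 of them at an unadjusted p under 0.05, against 2 with such a p and the opposite sign. Of the 269 genes lower in L2, 223 had the same sign, with 62 at an unadjusted p under 0.05 and 3 opposite. Over all tested genes 13549 of 20389 had the same sign. Of those at an unadjusted p under 0.05 in H1/L1, 944 had the same sign and 224 the opposite sign. The median had the same sign in both contrasts in 64 of 78 families, and the Spearman correlation over these 78 medians was 0.74, families sharing a bulk's libraries and therefore not being independent.

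The likeness over the families was seen with 1 of the 4 pairings of a single H1 with a single H2 library. H1 replicate A stood apart from the other library of its bulk as H2 replicate B did, with 19392 and 20213 genes detected against 22193 to 23188 in the other 6 libraries. Its log2 CPM correlated at 0.897 with H1 replicate B and at 0.913 with H2 replicate B, and H1 replicate B correlated at 0.946 and 0.957 with the L1 libraries. With L2 set against H2 replicate B alone and L1 against H1 replicate A alone, 59 of 78 families had the same sign and the Spearman correlation of the medians was 0.75. In the other 3 pairings of single libraries it was -0.05, 0.07 and 0.00059, with 33, 43 and 39 families of the same sign. What these 2 libraries share was not tested, and the counts of single genes were not recomputed for such pairings.

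Histones had a median of -1.20 against H1 replicate A and -0.07 against H1 replicate B, with a summed level of 3027 and 1591 CPM in H1 and 1708 and 1471 CPM in L1. Cytosolic ribosomal proteins had -0.86 and 0.04 in the same order, with 103006 and 54172 CPM in H1 and 58244 and 47769 CPM in L1. The respiratory chain had -0.53 and 0.08, and pentatricopeptide repeat proteins 0.71 and 0.05. In these 4 families the median in H1/L1 was thus far from 0 against H1 replicate A only. Single libraries were compared in this way after the data had been seen.

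Proteinase inhibitors had a median of -0.41 in H1/L1, with -0.39 and -0.09 against H1 replicates A and B alone, and glutathione S-transferases of -0.47, with -0.61 and -0.29. Lipoxygenase and jasmonate genes lay at -0.14, with 0.05 and -0.15. Genes of tuberization, clock and flowering lay at 0.14, with 0.38 and 0.0012, and 0 were higher and 1 lower in L1 at an unadjusted p under 0.05. 9-divinyl ether synthase (LOC102588225) was lower in L1 too, with a log2FC of -3.90, and proteinase inhibitor 1-like (LOC107061909) and the type-2 inhibitor LOC102581269 with -2.17 and -2.13. TIFY 10A-like (LOC102584798), ECERIFERUM 3-like (LOC102594285) and phytochrome E (LOC102588382) had 0.17, -0.08 and -0.01 in H1/L1. Cutin, suberin and wax genes were on the other side, with a median of 0.12 in H2/L2 and -0.21 in H1/L1 (-0.13 and -0.32 against each H1 library).

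**Figure D5:**
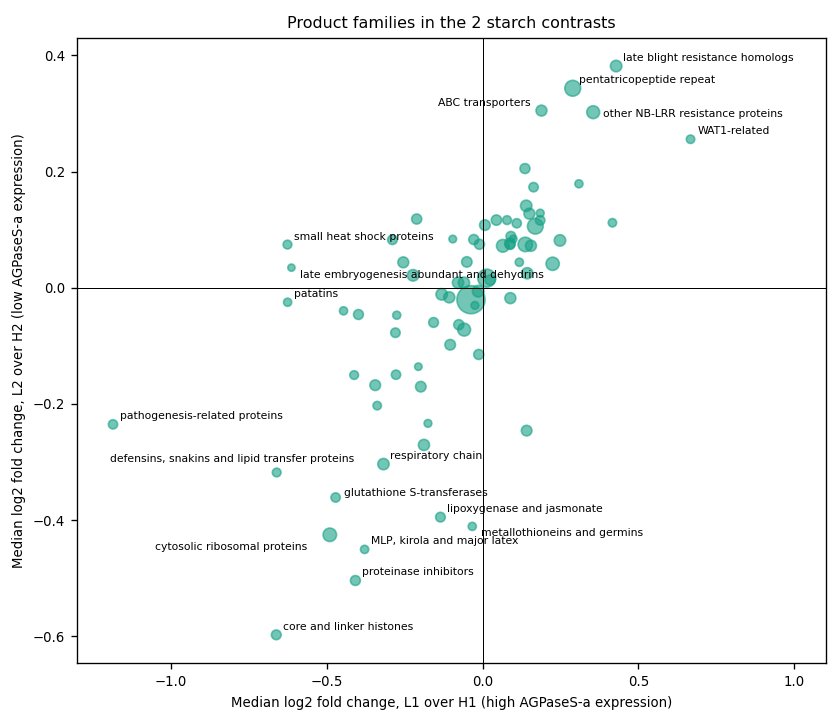
Median log2FC of each product family with at least 10 tested genes in H1/L1 (horizontal axis) and H2/L2 (vertical axis), with a larger point for more tested genes. Histones lay low in both contrasts (-0.66 and -0.60) and pentatricopeptide repeat proteins high (0.29 and 0.34), and photosynthesis had opposite signs (0.14 and -0.25), while against H1 replicate B alone the histones and repeat proteins lay at -0.07 and 0.05.

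The difference between the contrasts was tested directly as an interaction. No gene was called in edgeR (0 genes, with 321 genes or 1.57 percent at an unadjusted p under 0.05), and DESeq2 called 6. Isoflavone reductase-like protein (LOC102596717), of the enzymes that reduce phenolic compounds, had 7.02 and 5.03 CPM in H2 and 20.3 and 10.9 CPM in L2, but 48.4 and 58 CPM in H1 and 6.93 and 14.7 CPM in L1. The interaction was 3.67 on the log2 scale (SE 0.63, unadjusted p = 0.00036 in edgeR, FDR 1.00). NRT1/PTR FAMILY 1.2-like (LOC102579781) and caffeic acid 3-O-methyltransferase 1-like (LOC102601955), a methylating enzyme of lignin precursors, also had opposite signs, with 2.77 and 0.40 in H2/L2 and -1.37 and -1.32 in H1/L1.

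In the other direction, cytochrome P450 87A3-like (LOC102602364) had 0.992 and 3.14 CPM in H2 and 0.0612 and 0.182 CPM in L2, but 1.27 and 0.654 CPM in H1 and 5.24 and 4.28 CPM in L1. The cruciferin PGCRURSE5-like gene (LOC102601158), named after a seed storage globulin, had 55.6 and 12.4 CPM in H2 and 9.58 and 9.79 CPM in L2, against 9.05 and 24.6 CPM in H1 and 96.2 and 130 CPM in L1. H2 replicate A was high in this gene, and without it the log2FC in H2/L2 was -0.35 instead of -1.81. Zinc finger protein 4-like (LOC102597837) had a log2FC of -0.34 in H2/L2 and 1.43 in H1/L1.

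Chaperones had 2 of the 5 highest CPM of all genes, without correction for gene length, and overlapped between the bulks. Heat shock cognate 70 kDa protein 2-like (LOC102580808), a general chaperone, had 12410 and 11325 CPM in H2 and 9479 and 12030 CPM in L2, and Hsp90-2-like (LOC102577431) had 10883 and 11061 CPM in H2 and 11546 and 10491 CPM in L2. Their log2FC values were within the error, at -0.14 (SE 0.36) and 0.01 (SE 0.34).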

How the data were processed

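Tuber RNA was sequenced from 4 bulks with 2 libraries each (poly(A), directional libraries, paired-end reads). The deposited values are raw counts per gene, which the authors obtained with HTSeq after trimming (Trimmomatic) and alignment to SolTub_3.0 with TopHat2 2.0.9 and Bowtie2 2.1.0. The strand setting of HTSeq was not found in the labels or methods, so that reads of overlapping genes may be shared. The authors' tables of comparisons repeat these counts and add columns of fold change (a ratio and its log2 value), standard error (a score), p-value and FDR from the authors' DESeq run, and none of these deposited columns was used. In the table of all libraries, 2 columns that match no sample were left out.

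Counts of all 8 libraries were scaled with TMM, filtered with filterByExpr and tested with the quasi-likelihood test of edgeR 4.0.16 (R 4.3.3). The model held a mean for each bulk and used Benjamini-Hochberg adjustment. The contrasts were L2 minus H2, L1 minus H1 and their difference (interaction). The common biological coefficient of variation was 0.426, and 2 libraries per bulk limit the precision of every value. DESeq2 1.42.0 and other scalings, filters and sets of libraries were run as alternatives. The fit was tested on simulated data. CPM are not corrected for gene length.

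The genes named were the 10 of lowest p per direction without overlap and with at least 1 CPM in a bulk, in each product family up to 2 per direction of largest change without overlap at an unadjusted p under 0.05 (otherwise the member of highest CPM), the 5 of highest CPM, and 3 per direction with opposite contrasts. For the text, a choice was made among them, and others are marked as chosen after their values were seen. Families (82 in 22 groups) group genes by words of their product name. The bulks, families and rules were chosen with earlier results of these data known. Positions are those of SolTub_3.0, and 32736 of 32768 genes matched RefSeq by symbol.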

Additional observations from a re-analysis of the deposited data

How the results depend on the processing

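DESeq2 called 27 genes in H2/L2 and 6 in the interaction on all 8 libraries, and 11 in H2/L2 with a normal prior on 4 libraries, where edgeR called 0. None of the 27 overlapped between the bulks, and edgeR gave each an unadjusted p under 0.05. Of the 78 families, 35 had a median below 0, against 20 with library totals, which moved the median of all genes by 0.11. Leaving out single libraries gave 29 to 45 such families, 101 to 1262 genes higher and 179 to 561 lower at an unadjusted p under 0.05 (1262 and 561 without H2 replicate A, 101 and 179 without L2 replicate B, 109 and 193 without L2 replicate A, 391 and 494 without H1 replicate B, 383 and 495 without H1 replicate A), and 0 genes called in H2/L2 or the interaction. Genes without overlap then numbered 5987 to 9036 higher and 5319 to 7702 lower, since 3 libraries overlap less often than 4. The replicate block left 158 genes higher and 193 lower at an unadjusted p under 0.05 and called 0, and libraries of the same letter did not deviate together between H2 and L2 (r = -0.076), so that the letter was not taken as a pairing. Several named genes that overlap between the bulks changed sign. Without single libraries, AGPS1 (-0.22) was -0.67 to 0.45, the branching enzyme LOC102596498 (0.09) -0.52 to 1.18, GBSS -0.024 to 0.53, LOC102596766 -0.28 to 0.37, SS16 -0.45 to 0.41, LOC102577642 -0.24 to 0.016, LOC102580808 -0.32 to 0.020 and LOC102577431 -0.065 to 0.074. SS16 was 0.00065 with library totals, and LOC102577431 was -0.0082 with RLE size factors, -0.0098 with a minimum of 50 counts, -0.0023 on 4 libraries and -0.0079 in DESeq2. For other named genes, 24 values passed the threshold under an alternative, all with DESeq2. The depth leaves genes under about 1 CPM with wide counting intervals.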
